A study of Mus musculus with 11 samples.

Results

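The TLR4 receptor complex and its adaptors were examined here as 10 genes: Lbp, Cd14, Ly96, Tlr4, Myd88, Tirap, Ticam1, Ticam2, Irak2 and Irf3. They were chosen by gene symbol for their known place in lipopolysaccharide (LPS) sensing. Each symbol matched a single Ensembl identifier among the 21899 genes of the RNA-seq table, and all 10 passed the filter on low values, a mean of at least 0.5 FPKM (fragments scaled by exon length and by the size of the library) over the 11 libraries. All libraries came from airway of wild-type male BALB/c mice aged 6 to 8 weeks, taken on day 25. PBS mice (3 libraries) were not sensitized and were given PBS only. OVA/LPS/Vehicle mice (4 libraries, numbered 12, 34, 56 and 78) were sensitized with ovalbumin (OVA) and alum, and challenged intranasally with 5 µg OVA. They were then given repeated intranasal LPS (50 ng), the last dose days before the airway was taken. Intratracheal vehicle was given repeatedly from the day of the last LPS dose. OVA/LPS/GGsTop mice (4 libraries) had the same OVA and LPS but intratracheal GGsTop, an inhibitor of γ-glutamyl transferase, at 0.5 mg/kg in place of vehicle. LPS without OVA and GGsTop without challenge were not analysed here. Whether a library is 1 animal or a pool is not given in the sources used here, so p-values measure only the spread between these libraries.

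TLR4 is the receptor for bacterial LPS. LPS-binding protein (Lbp) extracts LPS from its aggregates, CD14 passes it on, and MD-2, the product of Ly96, holds it on TLR4. The TIR-domain adaptors TIRAP and MyD88 then carry the signal from the cell surface through IRAK kinases to NF-κB, while TRAM (Ticam2) and TRIF (Ticam1) carry it from endosomes to the transcription factor IRF3 and to type I interferon genes. In the airway, TLR4 of the epithelium and of myeloid cells is known as a sensor of inhaled LPS.

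The labels name the tissue trachea, whereas the methods describe bluntly dissected airway without the trachea. Summed airway epithelium markers, led by Scgb1a1, Bpifa1 and Scgb3a1 of secretory cells, reached 31500 to 38500 FPKM in PBS, 36100 to 55100 FPKM in OVA/LPS/Vehicle and 43100 to 48700 FPKM in OVA/LPS/GGsTop. Summed cartilage markers ran from 0.562 to 58.4 FPKM over all libraries, low in most libraries and uneven within each group, and no marker was at 0 in all libraries. Fragment totals, recovered from the FPKM, were 15062757 to 18632383 in PBS, 15501856 to 16710800 in OVA/LPS/Vehicle and 14513136 to 15777202 in OVA/LPS/GGsTop. The libraries also differed in how the measured level depended on the GC content of a gene. This slope, in log2 per 10 points of GC, was 0.0484 and 0.0611 in PBS 2 and PBS 1 but 0.533 in PBS 3, was between -0.261 and -0.19 in OVA/LPS/Vehicle, and between 0.0464 and 0.108 in OVA/LPS/GGsTop. PBS 3 thus stood apart, the OVA/LPS/Vehicle group differed from both other groups, and values without PBS 3 and after a GC correction are given beside the results. Since GC slope and group coincide for OVA/LPS/Vehicle, its part in a difference and that of the treatment cannot be told apart.

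The comparison of OVA/LPS/Vehicle with PBS asked which of these genes changed in the airway with the OVA and LPS exposure. Tlr4, Ly96, Cd14 and Ticam2 were higher and Myd88, Irak2 and Irf3 lower, each at an adjusted p under 0.05 in limma's moderated test on log2(FPKM + 1), two-sided and Benjamini-Hochberg adjusted over 14004 genes. The higher calls were thus 4 of 10 members, beside 15.9% of all tested genes, and the lower calls 3 of 10, beside 22.1%. Groups did not overlap for 7 of 10 members, beside 44.1% of all tested genes. The median log2 fold change of the members, of which some rose and some fell, was 0.38, against -0.015 over all tested genes. With the GC correction these medians were 0.081 and -0.067. After the GC correction 1 member was called higher, Cd14, beside 7.88% of all tested genes, and 1 lower, Myd88, beside 12.9%. Without PBS 3, Ticam2 was called higher, beside 8.39% of all tested genes, and Myd88, Irak2 and Irf3 lower, beside 13.5%. With all libraries scaled to the same FPKM total, the median of all genes moved to -0.15, and the members split into 3 higher (Cd14 lost) and 4 lower (Ticam1 gained). In bulk tissue, fewer cells of a type and less RNA per cell cannot be told apart.

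**Figure D1:**
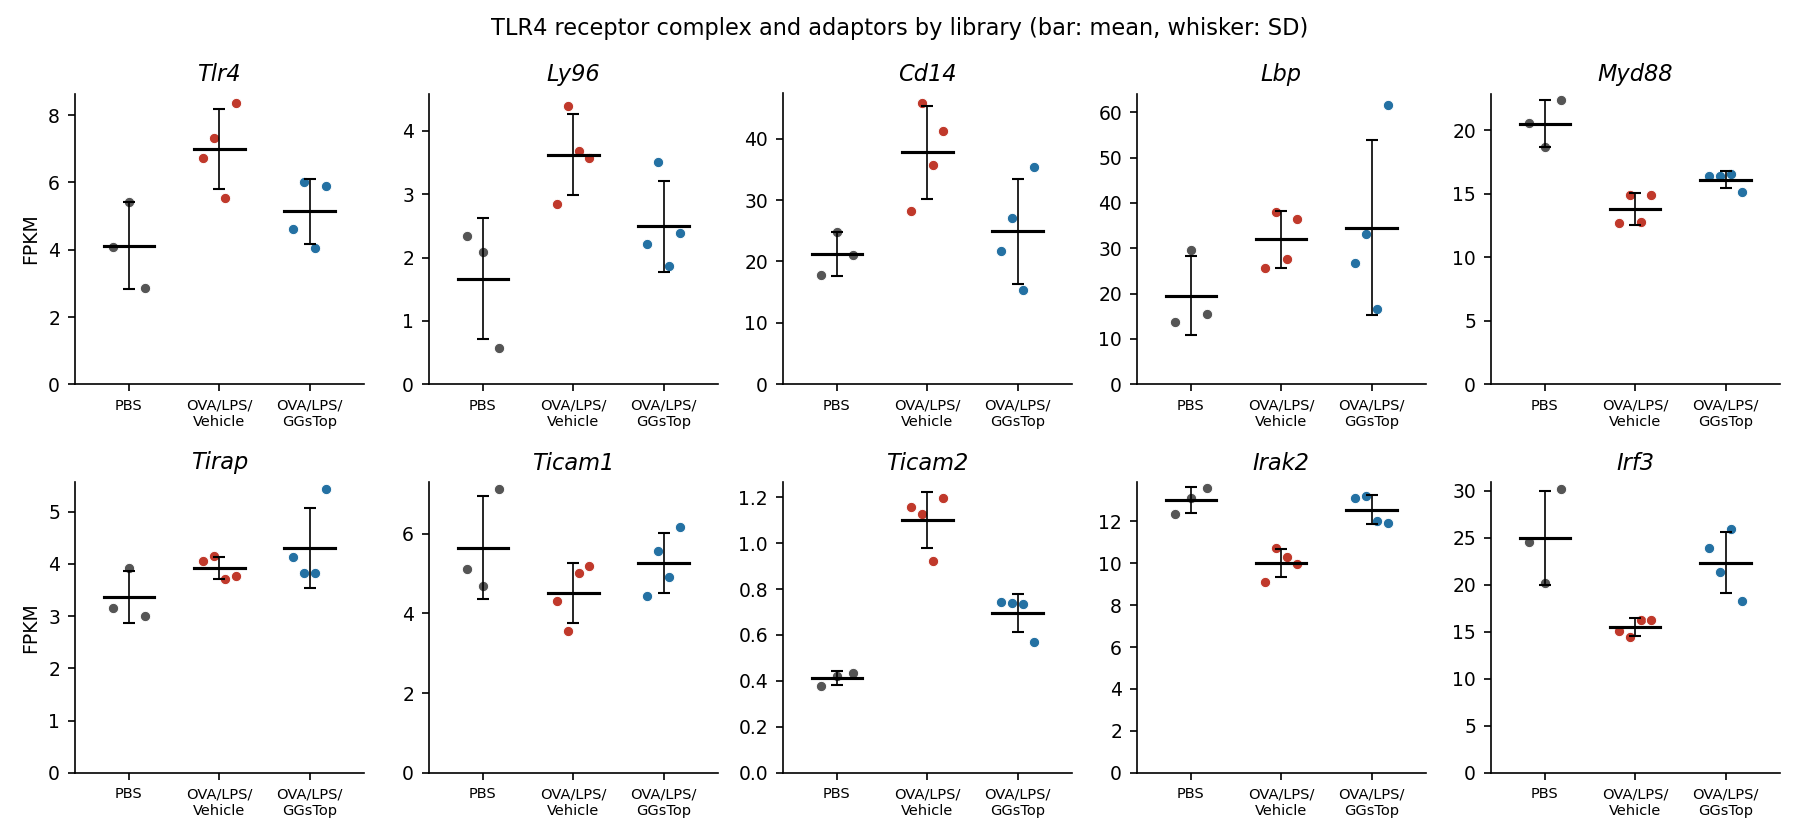
FPKM of the 10 members in every library, 1 panel per gene, with points for libraries, bars for means and whiskers for SD in PBS (n = 3), OVA/LPS/Vehicle (n = 4) and OVA/LPS/GGsTop (n = 4). Ticam2 lies between 0.378 and 0.436 FPKM in PBS and between 0.921 and 1.20 FPKM in OVA/LPS/Vehicle, while the groups overlap for Lbp, Tirap and Ticam1.

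Lbp, the soluble protein that first binds LPS, was measured at 13.8, 29.5 and 15.4 FPKM in PBS, at 25.7, 38.0, 27.6 and 36.5 FPKM in OVA/LPS/Vehicle, and at 26.8, 33.1, 16.7 and 61.6 FPKM in OVA/LPS/GGsTop. The groups overlapped, and the widest spread was within OVA/LPS/GGsTop. The log2 fold change of OVA/LPS/Vehicle against PBS was 0.74 ± 0.37 (SE; 95% interval -0.075 to 1.55; adjusted p = 0.132). It was 0.89 after the GC correction (adjusted p = 0.0935) and 0.615 without PBS 3 (adjusted p = 0.335). Lbp was called without PBS 2 (1.06, adjusted p = 0.0407), 1 of 7 such fits. With array weights, which called 24.6% of all tested genes higher, it was also called (1.14, adjusted p = 0.00263). Genes of similar GC content had a median of -0.25 (quartiles -0.46 to 0.017), so Lbp lay above its GC class. Liver is the best-known source of Lbp, and the summed liver markers, of which 0 of 6 passed the filter, lay between 0.238 and 1.7 FPKM in all libraries.

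Cd14, the co-receptor that delivers LPS, had 17.7, 24.8 and 21.1 FPKM in PBS. OVA/LPS/Vehicle had 28.2, 45.8, 35.7 and 41.3 FPKM, and OVA/LPS/GGsTop had 21.7, 27.0, 15.4 and 35.4 FPKM. Each OVA/LPS/Vehicle library lay above each PBS library, and the OVA/LPS/GGsTop libraries overlapped both. The rise over PBS was 0.79 ± 0.25 log2 (adjusted p = 0.0275). It was 0.91 after the GC correction (adjusted p = 0.0242) and 0.80 without PBS 3, where the call was lost (adjusted p = 0.0788), and it was kept in 2 of the 7 fits that left out 1 library of the pair of groups. Genes of similar GC content had a median of -0.24 in this comparison (quartiles -0.45 to 0.035), so Cd14 lay above its GC class.

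Ly96, whose product MD-2 holds the lipid part of LPS, had 2.34, 2.08 and 0.578 FPKM in PBS, where the lowest value, in PBS 3, rests on 11 fragments. In OVA/LPS/Vehicle it had 2.84, 4.4, 3.69 and 3.58 FPKM, and in OVA/LPS/GGsTop 2.21, 3.51, 1.86 and 2.38 FPKM. All OVA/LPS/Vehicle libraries were above all PBS libraries, with PBS 3 far below the others of its group. The log2 fold change was 0.86 ± 0.25 (adjusted p = 0.0205), 0.52 without PBS 3 (adjusted p = 0.0681) and 0.39 after the GC correction (adjusted p = 0.124).

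Tlr4, the signalling receptor itself, had 4.07, 5.43 and 2.87 FPKM in PBS and 6.72, 7.33, 5.54 and 8.37 FPKM in OVA/LPS/Vehicle. OVA/LPS/GGsTop had 4.63, 6.01, 4.04 and 5.89 FPKM. OVA/LPS/Vehicle lay above PBS in every library, though its lowest library was close to PBS 2. The log2 fold change against PBS was 0.66 ± 0.19 (adjusted p = 0.0194), 0.47 without PBS 3 (adjusted p = 0.0846) and 0.12 after the GC correction (adjusted p = 0.583). At 39.4% GC, Tlr4 is among the most AT-rich of the tested genes, and the genes of nearest GC content had a median log2 fold change of 0.57 in the same comparison.

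Myd88, the adaptor shared by most Toll-like receptors and the IL-1 receptor family, moved the other way from the receptor genes. PBS had 20.5, 18.7 and 22.4 FPKM, OVA/LPS/Vehicle had 12.7, 14.9, 12.7 and 14.9 FPKM, and OVA/LPS/GGsTop had 16.4, 16.4, 16.5 and 15.1 FPKM. The 3 groups did not overlap, with OVA/LPS/GGsTop between the other groups. Against PBS, Myd88 fell by 0.54 on the log2 scale in OVA/LPS/Vehicle (SE 0.099, adjusted p = 0.00449), by 0.48 without PBS 3 (adjusted p = 0.0101) and by 0.37 after the GC correction (adjusted p = 0.028). It was called in all 7 fits that left out a library. Of its exonic bases 11.3% are shared with Acaa1a on the opposite strand, whose mean was 23.3 FPKM in PBS, 16.4 FPKM in OVA/LPS/Vehicle and 19.8 FPKM in OVA/LPS/GGsTop. The strand setting of the counting is not given in the sources used here, so reads of the shared stretch cannot be told apart.

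Tirap, the adaptor that brings MyD88 to the membrane, had group means of 3.36 ± 0.496 FPKM (SD, n = 3) in PBS, 3.93 ± 0.214 (n = 4) in OVA/LPS/Vehicle and 4.31 ± 0.768 (n = 4) in OVA/LPS/GGsTop. These groups overlapped, and the log2 fold change of OVA/LPS/Vehicle against PBS was 0.18 (95% interval -0.090 to 0.45, adjusted p = 0.258). Ticam1, which encodes TRIF, had 5.65 ± 1.29 FPKM in PBS, 4.51 ± 0.743 FPKM in OVA/LPS/Vehicle and 5.27 ± 0.755 FPKM in OVA/LPS/GGsTop, again with overlap. Its log2 fold change against PBS was -0.26 (95% interval -0.60 to 0.077, adjusted p = 0.193) and 0.043 after the GC correction.

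Ticam2, which encodes TRAM, the adaptor that links TLR4 to TRIF, had the lowest level of all members in each group. It had 0.378, 0.423 and 0.436 FPKM in PBS, 1.16, 1.12, 0.921 and 1.20 FPKM in OVA/LPS/Vehicle, and 0.745, 0.738, 0.733 and 0.572 FPKM in OVA/LPS/GGsTop. The 3 groups did not overlap. The values rest on 33 to 47 fragments a library in PBS, 85 to 116 in OVA/LPS/Vehicle and 49 to 67 in OVA/LPS/GGsTop. Against PBS the rise in OVA/LPS/Vehicle was 0.57 ± 0.10 on the log2(FPKM + 1) scale (adjusted p = 0.00427), a scale that understates changes of low genes, and 1.22 with a pseudocount of 0.1. It was called in all 7 fits that left out a library, and was 0.32 after the GC correction (adjusted p = 0.0749). That correction subtracts the same amount from low and high genes of a given GC content, and its fit to a gene this low was not tested. Ticam2 shares 14.5% of its exonic bases with Tmed7 on the same strand, whose mean was 12.8 FPKM in PBS, 19.7 FPKM in OVA/LPS/Vehicle and 12.7 FPKM in OVA/LPS/GGsTop. The part of reads from Tmed7 in the level of Ticam2 was not tested.

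Irak2, a kinase of the MyD88 signalling complex, had 12.4, 13.1 and 13.6 FPKM in PBS, 9.09, 10.7, 10.3 and 9.94 FPKM in OVA/LPS/Vehicle, and 13.1, 13.2, 12 and 11.9 FPKM in OVA/LPS/GGsTop. OVA/LPS/Vehicle lay below every library of both other groups, which overlapped each other. Against PBS it fell by 0.35 on the log2 scale in OVA/LPS/Vehicle (SE 0.088, adjusted p = 0.0126), and by 0.32 without PBS 3 (adjusted p = 0.0273). The fall was 0.20 after the GC correction and was not called (adjusted p = 0.11).

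Irf3, the interferon regulatory factor at the end of the TRIF arm, had 24.5, 20.1 and 30.1 FPKM in PBS. OVA/LPS/Vehicle had 15.1, 14.4, 16.3 and 16.2 FPKM, and OVA/LPS/GGsTop had 23.8, 21.3, 25.9 and 18.3 FPKM. Here too the OVA/LPS/Vehicle libraries lay below those of both other groups, and they were the most uniform of the 3 groups. Against PBS, Irf3 fell by 0.64 on the log2 scale (SE 0.14, adjusted p = 0.00866), with a value of -0.50 without PBS 3 (adjusted p = 0.0294) and of -0.32 after the GC correction (adjusted p = 0.107). At 56.7% GC it is the most GC-rich member, and the genes of nearest GC content had a median of -0.38.

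Promoters of 3 members that were lower in OVA/LPS/Vehicle are shown for their sequence context, from the RefSeq promoter table on GRCm38.p6, which held 5 of the 10 members. Each is the 250 bases before the start, 5′ to 3′ on the strand of the gene, with capitals for motif matches. Irak2 lies at chr6:113638217-113638466 (plus strand), Irf3 at chr7:44997398-44997647 (plus) and Myd88 at chr9:119340019-119340268 (minus).
Irak2: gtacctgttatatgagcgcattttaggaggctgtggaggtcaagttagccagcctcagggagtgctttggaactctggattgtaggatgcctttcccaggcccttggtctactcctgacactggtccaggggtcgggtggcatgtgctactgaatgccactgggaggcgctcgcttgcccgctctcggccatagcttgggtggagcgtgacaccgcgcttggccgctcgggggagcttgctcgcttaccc
Irf3: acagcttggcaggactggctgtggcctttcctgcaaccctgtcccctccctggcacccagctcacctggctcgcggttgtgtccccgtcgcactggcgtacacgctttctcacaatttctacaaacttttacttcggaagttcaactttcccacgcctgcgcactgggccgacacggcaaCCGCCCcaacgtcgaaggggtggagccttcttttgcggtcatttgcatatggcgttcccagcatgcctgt
Myd88: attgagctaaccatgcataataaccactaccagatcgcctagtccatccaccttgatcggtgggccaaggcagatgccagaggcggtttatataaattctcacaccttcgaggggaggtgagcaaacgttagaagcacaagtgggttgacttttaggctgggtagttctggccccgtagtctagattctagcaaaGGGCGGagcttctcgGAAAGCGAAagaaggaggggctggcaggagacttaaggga

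Both strands were searched for the NF-κB consensus, the AP-1 site TGANTCA, the IRF element GAAANNGAA and the GC box GGGCGG. Of 32851 promoters in the table, 7.25% hold the first, 6.75% the second, 7.13% the third and 32.7% the last. Irf3 has a GC box 70 to 65 bases before its start. Myd88 has a GC box 55 to 50 bases and an IRF element 40 to 32 bases before its start, and the Irak2 window holds none of the 4 motifs. The windows of Irak2, Irf3 and Myd88 hold 12, 16 and 9 CpG, beside a median of 6 in the table, and the windows of Tirap and Ticam1 also lie above that median.

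**Figure D2:**
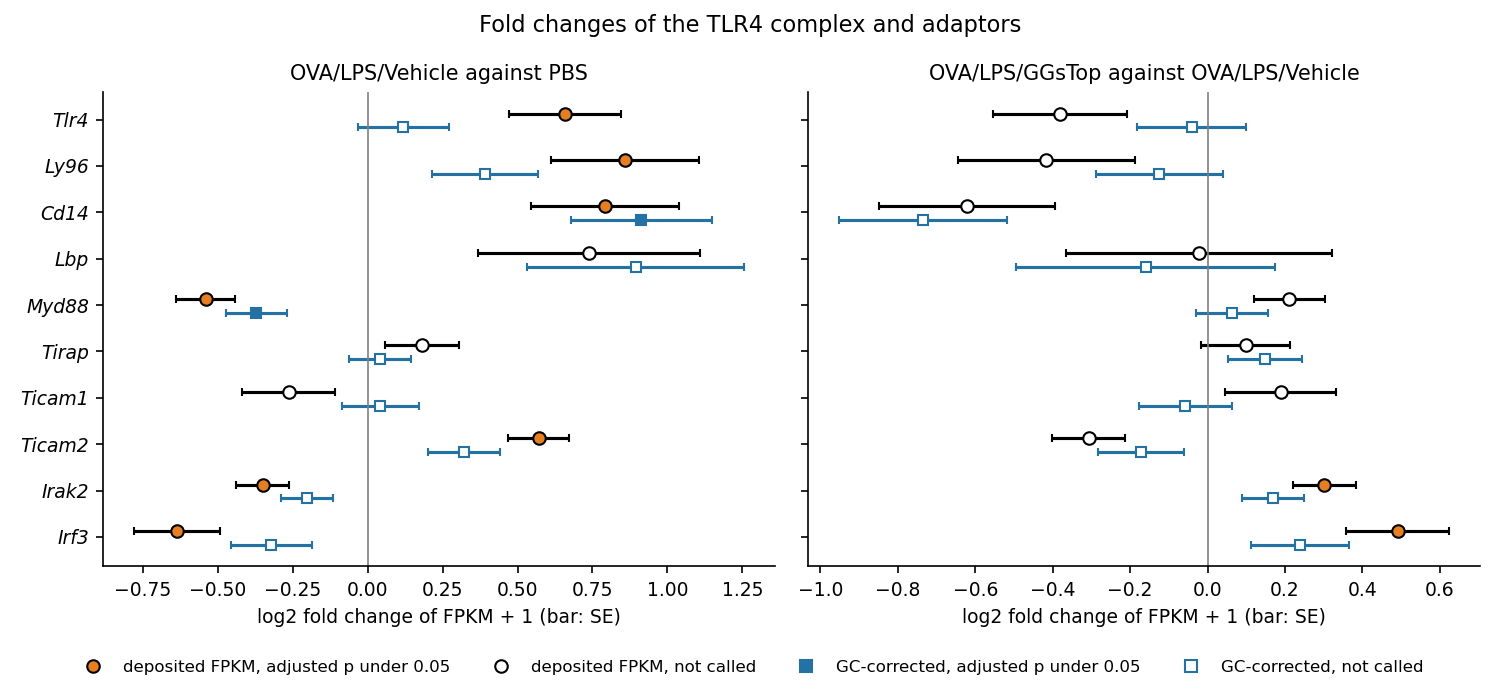
Log2 fold changes on the log2(FPKM + 1) scale for the 10 members in OVA/LPS/Vehicle against PBS and OVA/LPS/GGsTop against OVA/LPS/Vehicle, with circles for the deposited FPKM, squares for values after the GC correction, bars for SE and filled symbols for calls. Myd88 stays below 0 against PBS in OVA/LPS/Vehicle in both versions (-0.54 and -0.37), while the value of Tlr4 moves from 0.66 to 0.12.

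**Figure D3:**
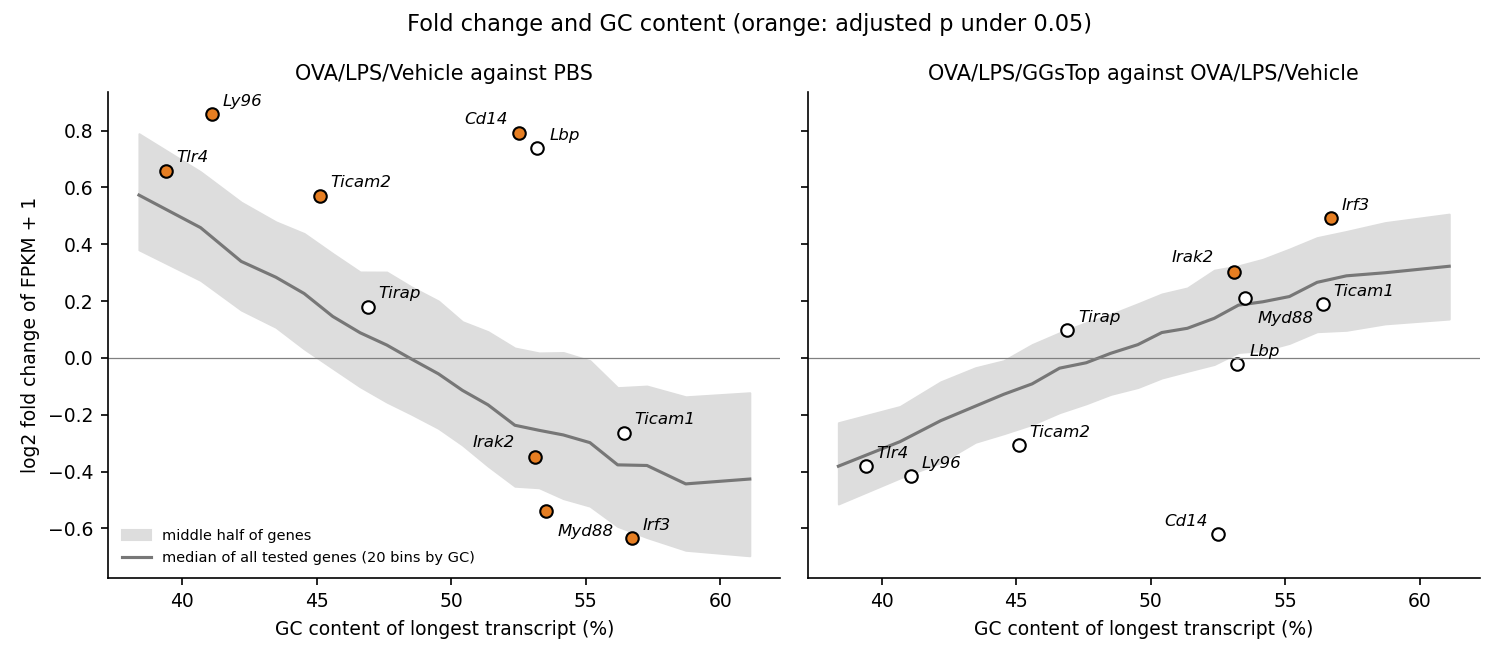
Log2 fold change against GC content in percent, for the members (points, orange where called) and for 20 equal groups of genes, in OVA/LPS/Vehicle against PBS and OVA/LPS/GGsTop against OVA/LPS/Vehicle. The line gives the medians and the band the quartiles. Tlr4 (39.4% GC) lies within the band in both comparisons, while Cd14 (52.5% GC) lies outside it in both, as do Lbp, Ticam2 and Irf3.

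The comparison of OVA/LPS/GGsTop with OVA/LPS/Vehicle asked whether GGsTop changed these genes in challenged mice. It uses the same OVA/LPS/Vehicle libraries as the comparison above, so the pair of comparisons is not independent. Irak2 and Irf3 were called higher, 2 of 10 members beside 6.9% of all tested genes, and 0 of 10 were called lower by limma, beside 1.81%. Other limma fits did call members lower: Ticam2 without the filter on low values or with only the groups compared, and Tlr4, Ly96, Cd14 and Ticam2 with array weights, a fit that called 14.2% of all tested genes lower and 23.1% higher. At an unadjusted p under 0.05, 3 were higher and 3 lower, beside 30.8% of all tested genes in either direction. Limma voom on fragments recovered from the FPKM called 0 higher and 1 lower, Ticam2, beside 5.63% higher and 1.73% lower of the genes it tested. Groups did not overlap for 4 members, Myd88, Ticam2, Irak2 and Irf3, beside 29.7% of all tested genes. The members' median log2 fold change was 0.039, against 0.031 over all tested genes, and 0 members were called after the GC correction, which left calls for 0.4% of all tested genes.

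Irak2 was higher with GGsTop by 0.30 ± 0.082 log2 (adjusted p = 0.0456), in the libraries listed above, of which all 4 with GGsTop exceeded all 4 with vehicle. After the GC correction the value was 0.17 (adjusted p = 0.258), and with any single library left out it was 0.26 to 0.33 with an adjusted p of 0.0539 to 0.123, so 0 of 8 such fits kept the call. Irf3 was higher by 0.49 ± 0.13 log2 (adjusted p = 0.0458), also without overlap. Its value was 0.24 after the GC correction (adjusted p = 0.305) and 0.42 to 0.58 with a library left out, where 1 of 8 fits kept the call. Irf3 was called without OVA/LPS/GGsTop 4 (adjusted p = 0.0338).

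The receptor genes had negative values that were not called in this fit. Cd14 had the lowest value of the 10, -0.62 ± 0.23 log2 (adjusted p = 0.0984), and -0.73 after the GC correction (adjusted p = 0.108), while genes of similar GC content had a median of 0.14. Without OVA/LPS/GGsTop 4, its highest library in that group, Cd14 was called at -0.80 (adjusted p = 0.0445). Tlr4 had -0.38 (95% interval -0.76 to -0.0020, adjusted p = 0.161) and -0.041 after the GC correction. Ly96 had -0.42 (adjusted p = 0.234), and Lbp -0.021 with a 95% interval of -0.77 to 0.73, too wide to tell a fall from a rise.

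Among the adaptors, Ticam2 had -0.31 ± 0.095 log2 (adjusted p = 0.0609), with every GGsTop library below every vehicle library, and -0.17 after the GC correction (adjusted p = 0.395). Myd88 had 0.21 ± 0.091 (adjusted p = 0.145), with every GGsTop library above every vehicle library, and 0.064 after the GC correction. Tirap had 0.099 (adjusted p = 0.583) and Ticam1 0.19 (adjusted p = 0.388), with overlapping groups.

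OVA/LPS/GGsTop was set against PBS as a measure of how far treated mice lay from unchallenged mice. With limma, 0 of 10 members were called in either direction, beside 2.06% higher and 0.821% lower of all tested genes. Voom called 0, beside 2.44% of the genes it tested. At an unadjusted p under 0.05, 2 were higher and 1 lower, beside 20.5% of all tested genes in either direction. Groups did not overlap for 2 members, Myd88 and Ticam2, beside 14.8% of all tested genes. Myd88 had -0.33 log2 (adjusted p = 0.0951) and Ticam2 0.26 (adjusted p = 0.179). Irak2 had -0.049 and Irf3 -0.14, with adjusted p of 0.776 and 0.588. Larger uncalled values were those of Lbp (0.72, adjusted p = 0.299) and Ly96 (0.44, adjusted p = 0.334). Tirap had 0.28 (adjusted p = 0.229), Tlr4 0.28 (adjusted p = 0.415), Cd14 0.17 (adjusted p = 0.714) and Ticam1 -0.075 (adjusted p = 0.809).

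On the per-length FPKM scale the order of levels differed between groups. In PBS, Irf3 (24.9 ± 5.0 FPKM, SD, n = 3) came first, then Cd14 (21.2 ± 3.53), Myd88 (20.5 ± 1.87) and Lbp (19.6 ± 8.68), and neighbours in this order overlapped in range. In OVA/LPS/Vehicle, Cd14 (37.8 ± 7.59 FPKM, n = 4) and Lbp (32.0 ± 6.21) overlapped each other and lay above Irf3 (15.5 ± 0.911) and Myd88 (13.8 ± 1.27). In OVA/LPS/GGsTop, Lbp (34.6 ± 19.3 FPKM, n = 4), Cd14 (24.9 ± 8.48) and Irf3 (22.3 ± 3.27) overlapped as neighbours. In each group Ticam2 came last, and its range did not overlap that of Ly96, the next gene.

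Ratios of FPKM within a library do not depend on the scaling of that library. They were chosen after the values were seen and are given as a description. These ratios are of uncorrected FPKM, and the GC slope of a library stays in them where the genes differ in GC content. Cd14 (52.5% GC) differs so from Tlr4 (39.4%), and Ticam2 (45.1%) from Ticam1 (56.4%). After the GC correction, OVA/LPS/Vehicle against PBS had 0.91 log2 for Cd14 and 0.12 for Tlr4. Cd14 over Tlr4 was alike in range across groups, with 5.43 ± 1.68 (SD, n = 3) in PBS, 5.45 ± 1.07 (n = 4) in OVA/LPS/Vehicle and 4.75 ± 0.922 (n = 4) in OVA/LPS/GGsTop. Cd14 over Myd88, the co-receptor against the adaptor, was 0.864 to 1.33 in PBS, 2.22 to 3.08 in OVA/LPS/Vehicle and 0.932 to 2.34 in OVA/LPS/GGsTop. Ticam2 over Ticam1, the bridging adaptor against TRIF, was 0.0612 to 0.090 in PBS, 0.184 to 0.317 in OVA/LPS/Vehicle and 0.0927 to 0.168 in OVA/LPS/GGsTop, without overlap between the 3 groups.

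**Figure D4:**
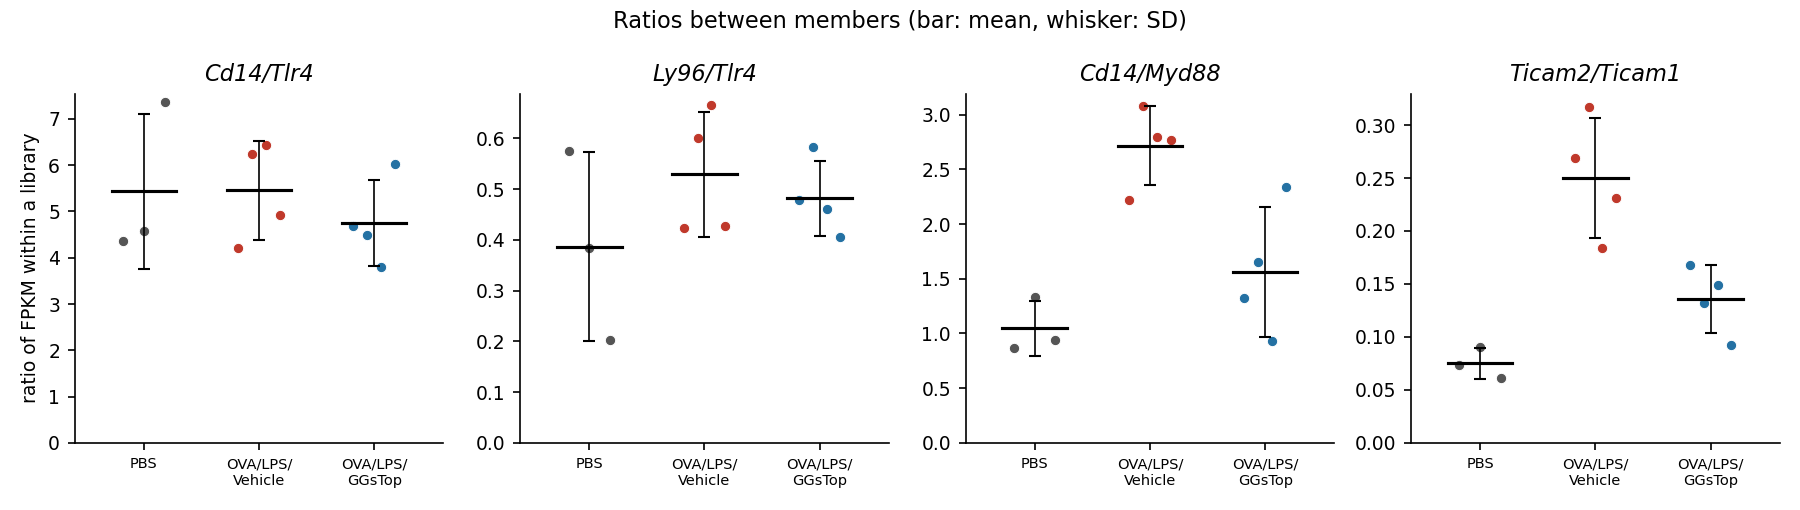
Ratios of FPKM, without the GC correction, between members within each library, with points for libraries, bars for means and whiskers for SD. Cd14 over Myd88 averages 1.05 in PBS, 2.72 in OVA/LPS/Vehicle and 1.56 in OVA/LPS/GGsTop, whereas Cd14 over Tlr4 overlaps between all groups.

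Other genes of the pathway were taken from lists written by hand, and their counts stand beside the shares of all tested genes given above for OVA/LPS/Vehicle against PBS, 15.9% higher and 22.1% lower. Of 15 further genes of the MyD88 arm, 2 rose in OVA/LPS/Vehicle over PBS, the IκB kinase gene Chuk (0.51 log2, adjusted p = 0.0279) and Ube2n, which encodes a ubiquitin-conjugating enzyme that works with TRAF6 (0.48, adjusted p = 0.0308). In the same comparison 3 fell: Irak4, the kinase that MyD88 recruits first (-0.28, adjusted p = 0.0383), the inhibitory adaptor gene Tollip (-0.29, adjusted p = 0.0175) and Tab1, a partner of the kinase TAK1 (-0.54, adjusted p = 0.0232). These counts are near the shares of all tested genes. Of these 5, Tollip was still called after the GC correction, and it was the gene of the list that was called without PBS 3. Traf6 (-0.28, adjusted p = 0.042) and Peli1 (-0.43, adjusted p = 0.0229), both ubiquitin ligase genes, were called after the correction though not before it, so the corrected list had 0 higher and 3 lower. With GGsTop against vehicle 0 of 15 were called by limma, beside 8.71% of all tested genes, and 0 by voom, beside 7.36%. At an unadjusted p under 0.05, 2 were higher and 1 lower, beside 30.8% of all tested genes in either direction.

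Of 11 genes of the TRIF arm, 3 rose and 4 fell in OVA/LPS/Vehicle over PBS, beside 15.9% and 22.1% of all tested genes. Those that rose were Tank, a scaffold of the kinases that act on IRF3 (0.91 log2, adjusted p = 0.0118), Tmed7 (0.65, adjusted p = 0.0304) and Azi2 (0.38, adjusted p = 0.0251). Those that fell were Tbkbp1, which encodes a binding partner of TBK1 (-1.02, adjusted p = 0.0092), Ripk3 (-0.64, adjusted p = 0.0285), Irf7 (-0.55, adjusted p = 0.024) and Traf3 (-0.31, adjusted p = 0.0472). After the GC correction 0 of these 7 were called, while the kinase gene Ripk1 was called lower (-0.28, adjusted p = 0.0244), and without PBS 3 Tank, Tmed7, Azi2 and Tbkbp1 were. With GGsTop against vehicle 0 of 11 were called by limma, beside 8.71% of all tested genes, and 0 by voom, beside 7.36%. At an unadjusted p under 0.05, 1 was higher and 2 lower, beside 30.8% of all tested genes in either direction.

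Of genes that fold the receptor or handle LPS, 4 of 10 tested rose and 2 fell in OVA/LPS/Vehicle over PBS. Hsp90b1, which encodes gp96, the chaperone of Toll-like receptors, had a mean of 70.5 FPKM in PBS and 122 FPKM in OVA/LPS/Vehicle (0.79 log2, adjusted p = 0.00391). Cnpy3, which encodes the co-chaperone of gp96, had 27.0 and 16.4 FPKM (-0.67, adjusted p = 0.00569). The chaperone and its partner thus changed in opposite directions, and both were called after the GC correction as well, at 0.37 (adjusted p = 0.0418) and -0.32 (adjusted p = 0.0479). Ly86, which encodes MD-1, a relative of MD-2, rose by 0.54 (adjusted p = 0.0112) and held after the correction (adjusted p = 0.0212). Cd36 (0.49, adjusted p = 0.0491) and Rab11a (0.45, adjusted p = 0.02) rose and Pltp fell by 0.57 (adjusted p = 0.0135). These calls were lost after the GC correction, and the sign of the first pair turned, with Cd36 at -0.090 (adjusted p = 0.598), Rab11a at -0.085 (adjusted p = 0.693) and Pltp at -0.23 (adjusted p = 0.232). Without PBS 3, Hsp90b1, Ly86, Cnpy3 and Pltp were called. With GGsTop, the scavenger receptor gene Cd36 fell by 0.74 (adjusted p = 0.0283) and Rab11a, a GTPase gene of endosomal recycling, by 0.46 (adjusted p = 0.0406). The GC correction left 0 of 10 called, beside 0.4% of all tested genes.

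Of 12 brakes of TLR4 signalling, whose counts are near the shares of all tested genes, 2 rose in OVA/LPS/Vehicle over PBS, Il1rl1 (0.55 log2, adjusted p = 0.0351), which encodes the IL-33 receptor, and the deubiquitinase gene Cyld (0.38, adjusted p = 0.0384). The 3 that fell were the phosphatase gene Dusp1 (-0.75, adjusted p = 0.0151), Sigirr (-0.53, adjusted p = 0.0178) and Rnf216 (-0.30, adjusted p = 0.0339), a ubiquitin ligase gene. After the GC correction 0 of 12 were called, beside 20.8% of all tested genes, and without PBS 3 also 0, beside 21.9%. With GGsTop, Rnf216 was higher by 0.33 (adjusted p = 0.048), and its value was not called after the GC correction (adjusted p = 0.173). Socs1, a suppressor of cytokine signalling, was called lower with GGsTop after the correction (-0.86, adjusted p = 0.0387) and had -0.57 before it (adjusted p = 0.0647).

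Of 11 tested targets of MyD88 and NF-κB, 4 rose in OVA/LPS/Vehicle over PBS and 0 fell, beside 15.9% and 22.1% of all tested genes. At an unadjusted p under 0.05, 6 were higher and 0 lower, beside 49.6% of all tested genes in either direction. Voom called 5 higher and 0 lower, beside 18.9% and 20.3% of the genes it tested. Cxcl1, a neutrophil chemokine gene, had 1.85 ± 0.283 FPKM in PBS (SD, n = 3), 7.02 ± 2.68 in OVA/LPS/Vehicle (n = 4) and 2.0 ± 0.491 in OVA/LPS/GGsTop (n = 4), a rise of 1.44 log2 over PBS (adjusted p = 0.00365) and a fall of 1.38 with GGsTop (adjusted p = 0.0131). Cxcl2, another neutrophil chemokine gene, rose by 1.06 (adjusted p = 0.00619) and fell by 1.02 with GGsTop (adjusted p = 0.0204). The acute-phase gene Saa3 rose by 1.60 over PBS (adjusted p = 0.0151), with means of 7.36 FPKM with vehicle and 7.42 FPKM with GGsTop, and the prostaglandin synthase gene Ptgs2 rose by 0.77 (adjusted p = 0.00735). All 4 were called without PBS 3. After the GC correction Cxcl1, Cxcl2 and Saa3 were still called against PBS, Ptgs2 was not (adjusted p = 0.251), and Lcn2, an antibacterial siderophore-binding protein gene, was called (1.12, adjusted p = 0.0385), which before the correction had 0.90 (adjusted p = 0.057). With GGsTop against vehicle Cxcl1 was still called after the correction (adjusted p = 0.0388), but Cxcl2 was not (adjusted p = 0.0675). Tnf had 0.34 log2 over PBS (adjusted p = 0.178) and Il1b -0.12 (adjusted p = 0.724). Cxcl3, a related chemokine gene that was under the filter, averaged 0.0949 FPKM in PBS, 0.554 FPKM in OVA/LPS/Vehicle and 0.135 FPKM in OVA/LPS/GGsTop. An exact two-sided permutation test, whose smallest possible p is 0.0286, gave p = 0.0571 for OVA/LPS/Vehicle against PBS and p = 0.0571 with GGsTop. Il6, also under the filter, averaged 0.171, 0.328 and 0.172 FPKM in the same order, with exact p of 0.0857 and 0.0571.

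Of 8 tested targets of TRIF and IRF3, Ifit1, an interferon-induced gene, rose by 0.70 log2 in OVA/LPS/Vehicle over PBS (adjusted p = 0.00882) and fell by 0.54 with GGsTop (adjusted p = 0.0467), neither of which was called after the GC correction, while the rise was called without PBS 3 (adjusted p = 0.0318). Ifit2 was called lower in OVA/LPS/Vehicle against PBS after the GC correction (-0.52, adjusted p = 0.0323) and had -0.10 before it (adjusted p = 0.689). Ifnb1, the interferon β gene, was under the filter and was listed at 0 in all PBS and OVA/LPS/Vehicle libraries. Over all 6 pathway lists, Il1rl1 was the gene called in OVA/LPS/GGsTop against PBS (0.78, adjusted p = 0.0453). This comparison called few genes anywhere, 2.06% higher and 0.821% lower of all tested genes. The call of Il1rl1 was lost after the GC correction (0.64, adjusted p = 0.0775).

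**Figure D5:**
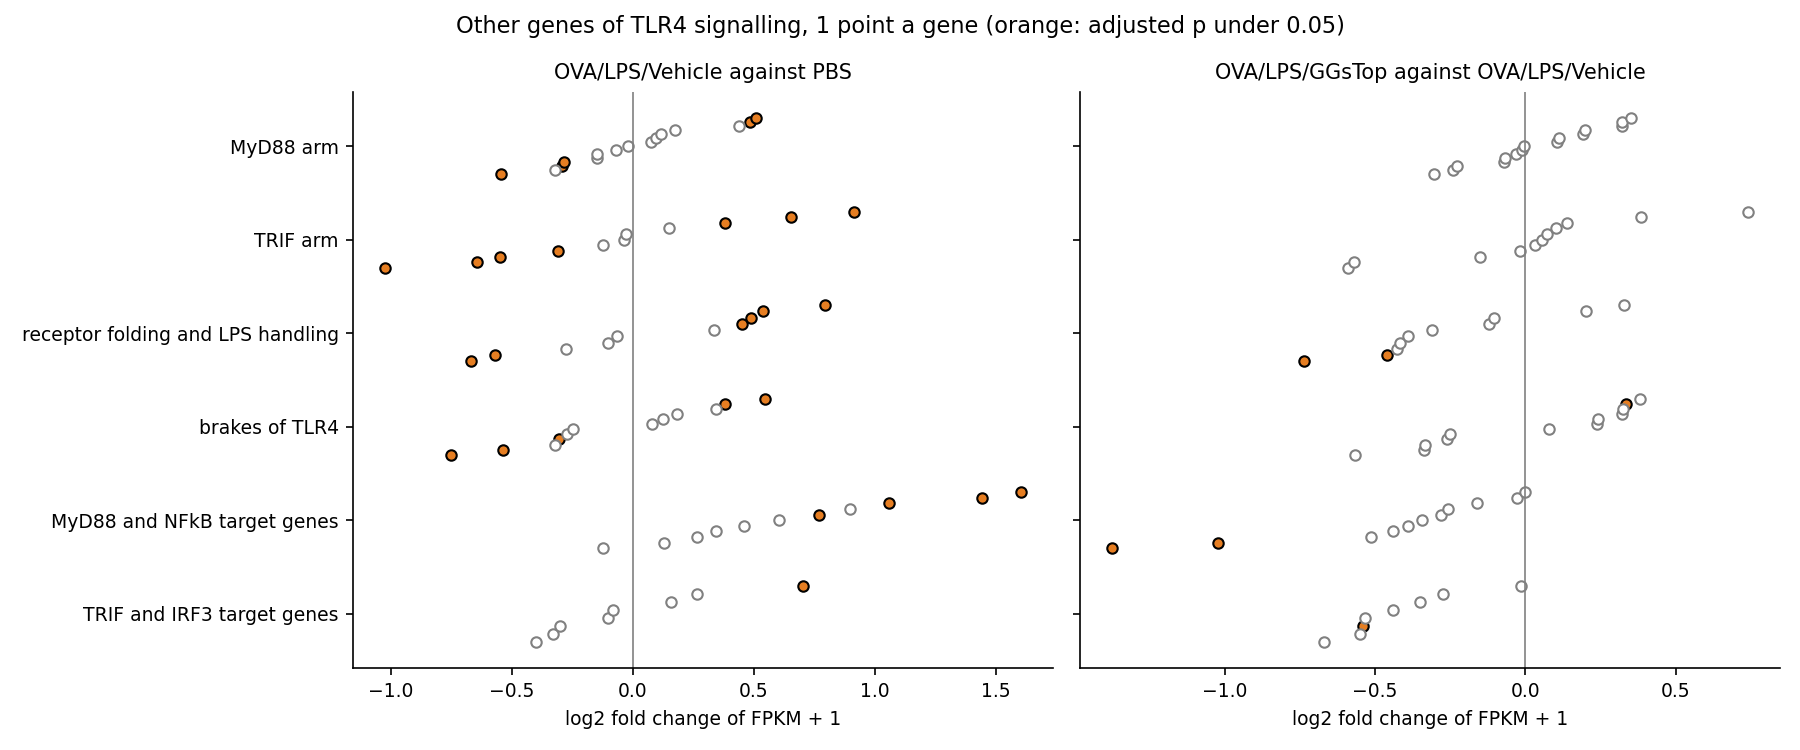
Log2 fold changes on the log2(FPKM + 1) scale for each tested gene of the 6 pathway lists, with orange points for genes called at an adjusted p under 0.05, in OVA/LPS/Vehicle against PBS and OVA/LPS/GGsTop against OVA/LPS/Vehicle. Cxcl1 reaches 1.44 in the first and -1.38 in the second.

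Markers of other cells moved in part with these genes. Summed macrophage and monocyte markers, led by Lyz2, Cd68 and Csf1r, spanned 2460 to 3420 FPKM in PBS, 2010 to 2870 FPKM in OVA/LPS/Vehicle and 1930 to 3220 FPKM in OVA/LPS/GGsTop, so the groups overlapped. Within this list of 10, Ccr2 of recruited monocytes was higher in OVA/LPS/Vehicle than in PBS (0.53 log2, adjusted p = 0.0222) and lower with GGsTop (-0.78, adjusted p = 0.0198), in the direction of the values of Cd14. Csf1r had the opposite signs (-0.61, adjusted p = 0.0151, and 0.61, adjusted p = 0.0351), in the direction of the values of Myd88 and Irf3. Mertk, a macrophage receptor gene, was lower in OVA/LPS/Vehicle than in PBS (-0.47, adjusted p = 0.0454). Against PBS the list thus had 1 higher and 2 lower, beside 15.9% and 22.1% of all tested genes. With GGsTop it had 1 higher and 1 lower, beside 6.9% and 1.81%. After the GC correction 0 of 10 were called, beside 20.8% of all tested genes against PBS and 0.4% with GGsTop. Ccr2 was then at -0.0063 against PBS (adjusted p = 0.982). Without PBS 3, 0 of 10 were called against PBS, beside 21.9% of all tested genes. Neutrophil markers summed to 114 to 361 FPKM in PBS, 144 to 269 FPKM in OVA/LPS/Vehicle and 157 to 309 FPKM in OVA/LPS/GGsTop, but single genes of that list moved both ways. Against PBS, the granule protein genes Camp (0.61, adjusted p = 0.0137) and Ngp (1.0, adjusted p = 0.0206) rose in OVA/LPS/Vehicle and were called after the GC correction and without PBS 3. Csf3r (-0.86, adjusted p = 0.0456) and Mmp9 (-0.94, adjusted p = 0.0219) fell, and were called in neither of those fits. These were 2 higher and 2 lower of 9 tested markers, beside 15.9% and 22.1% of all tested genes. Camp was also higher in OVA/LPS/GGsTop than in PBS (0.80, adjusted p = 0.0262), 1 of 9 beside 2.06% of all tested genes. Ly6g, under the filter, averaged 0.057 FPKM in PBS, 0.676 FPKM in OVA/LPS/Vehicle and 0.462 FPKM in OVA/LPS/GGsTop. The exact permutation test gave p = 0.0286 for OVA/LPS/Vehicle against PBS and p = 0.371 with GGsTop against vehicle.

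Of 10 epithelium markers 4 rose in OVA/LPS/Vehicle over PBS, among them Scgb3a1, beside 15.9% of all tested genes. The 4 were called after the GC correction, beside 7.88%, and 1 rose without PBS 3, beside 8.39%. Of 6 endothelium markers 3 fell, beside 22.1% of all tested genes, with 0 after the GC correction (12.9%) and 0 without PBS 3 (13.5%). Summed endothelium markers were 526 to 842 FPKM in PBS, 421 to 473 FPKM in OVA/LPS/Vehicle and 284 to 599 FPKM in OVA/LPS/GGsTop, and those of smooth muscle were 594 to 782, 479 to 526 and 469 to 1150 FPKM in the same order. Among 5 tested smooth muscle markers 1 fell against PBS, Actg2 (-0.80, adjusted p = 0.0159), beside 22.1% of all tested genes. Actg2 was called after the GC correction (adjusted p = 0.0422) but not without PBS 3. Fibroblast markers summed to 202 to 330, 181 to 308 and 183 to 370 FPKM. Of these 6, 2 fell in OVA/LPS/Vehicle against PBS, Pdgfra and Col1a1, beside 22.1% of all tested genes. Pdgfra (-0.68, adjusted p = 0.00776) was called after the GC correction (adjusted p = 0.0161) and without PBS 3 (adjusted p = 0.0247). Col1a1 (-0.94, adjusted p = 0.0183) was called in neither of those fits. Fat markers were 30.0 to 384, 304 to 938 and 22.1 to 426 FPKM, and those of thymus, thyroid and skeletal muscle together 0.965 to 32.9, 21.3 to 334 and 7.26 to 38.2 FPKM. In the latter list the thyroid gene Tg was higher in OVA/LPS/Vehicle than in PBS (4.99, adjusted p = 0.0201) and lower with GGsTop (-5.10, adjusted p = 0.0406). This was 1 of 5 tested genes in each comparison, beside 15.9% higher and 1.81% lower of all tested genes. Tg ran from 0.305 to 0.828 FPKM in PBS, 0.256 to 302.5 FPKM in OVA/LPS/Vehicle and 0.147 to 1.44 FPKM in OVA/LPS/GGsTop, so the groups overlapped. Its rise was not called without PBS 3 (adjusted p = 0.0627). The part of these cells and tissues in the changes of the members was not tested.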

How the data were processed

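Poly-A RNA of 11 airway libraries was sequenced by a service company. The authors deposited FPKM per gene and library, without further scaling. The submitters' processing notes name cutadapt 1.15, HISAT2 2.0.5, HTSeq 0.9.1 and the mouse build mm39, while annotation and strand setting are not given in the sources used here. FPKM times merged exon length of GENCODE M21 on GRCm38 gave whole fragments (within 0.02) for 21413 genes, 97.8% of the table, and coordinates, lengths and the GC content of the longest transcript are from that annotation. A fragment on 1 kb was worth 0.0537 to 0.0689 FPKM, which limits the precision of Ticam2 and Ly96.

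Libraries were grouped by label, and limma 3.58.1 in R 4.3.3 was run on log2(FPKM + 1) over all 11 libraries, with a mean-variance trend and for the 14004 genes whose mean reached 0.5 FPKM. Two-sided p-values had Benjamini-Hochberg adjustment over these genes, with calls at an adjusted p under 0.05. Genes under the filter had an exact two-sided permutation test on mean log2(FPKM + 1). For the GC correction, a spline of each library's deviations from gene means on GC content was subtracted. Alternatives changed the pseudocount (0.1), the filter (1 FPKM, or no filter), the scaling (same total, same median), the weights (array weights), the libraries (only the groups compared, or each left out in turn), the unit (limma voom on recovered fragments) and the block (replicate number). Lists without PBS 3 or with the GC correction, and medians per scaling, were added after seeing the data. Tables were made with Python 3.11.15 and pandas 2.3.3, and the fit was tested on simulated data.

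PBS and OVA/LPS/GGsTop share replicate numbers 1 to 3. The deviations from group means of same-numbered libraries correlated at 0.367, 0.427 and 0.428. Other pairs ran from -0.693 to 0.637, so these values do not show that the numbers pair libraries. No label says what the numbers share. The main fit was unpaired, and pairing by number was used only in the replicate block, an alternative fit. Pairs of replicates in a group differed by more than sampling noise, so none was counted as a duplicate.

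The members and the lists were chosen with earlier results of these data known. Named from the 6 pathway lists were all genes called in OVA/LPS/Vehicle against PBS or with GGsTop, and from marker lists up to 3 genes by level. Other genes of these lists (Tnf, Il1b, Il6, Cxcl3, Ifnb1, Ly6g, and those called after the GC correction or in a marker list) were named after their values were seen. Mx1 was not analysed here.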

Additional observations from a re-analysis of the deposited data

Results flagged for a closer look

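Among 20 sets of 4 libraries (10 members in the OVA/LPS/Vehicle and OVA/LPS/GGsTop groups), 2 held a library far from the other 3, by Dixon's gap over range above its critical value for 4 values. Chance flags about 1 in 20 such sets. Both were low values of OVA/LPS/GGsTop 4. Myd88 had 15.1 FPKM there, with 16.4 FPKM as the nearest other value (gap over range 0.882), and Ticam2 had 0.572 FPKM, with 0.733 FPKM as the nearest (0.93). In the same library Lbp (61.6 FPKM), Tirap (5.44 FPKM) and Cd14 (35.4 FPKM) were the highest of their group.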

How the results depend on the processing

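In OVA/LPS/Vehicle against PBS, 7 members were called (38% of all tested genes), 2 after the GC correction (20.8%), and 4 to 8 with 1 library left out (21.9 to 46%), the 4 being Ticam2, Myd88, Irak2 and Irf3 without PBS 3. With GGsTop against vehicle 2 were called (8.71%), 0 at the same median (4.98%), 0 after the GC correction (0.4%), 1 by voom (7.36%), 6 with array weights (37.2%, of the 6 Tlr4, Ly96, Cd14 and Ticam2 lower) and 0 to 2 with 1 library left out (0.171 to 7.51%), where the 2 were Irf3 and Cd14 without OVA/LPS/GGsTop 4 and each other fit gave 0. In OVA/LPS/GGsTop against PBS 0 were called (2.88%), 2 with array weights (18.3%) and 0 to 1 with a library left out (0.207 to 11.4%), the 1 being Myd88 without PBS 2. The replicate block, with which PBS and OVA/LPS/GGsTop 1 to 3 are paired by number and which drops OVA/LPS/GGsTop 4, called 0 members (0.443%), and 0 together with the GC correction (2.84%), so the block changed no call.

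Some uncalled values turned sign. In OVA/LPS/Vehicle against PBS, Ticam1 was 0.043 after the GC correction. With GGsTop against vehicle, Lbp was 0.072 at the same FPKM total and -0.34 to 0.26 with a library left out, and Ticam1 was -0.057 after the GC correction. In OVA/LPS/GGsTop against PBS, Cd14 was -0.012 to 0.37 and Ticam1 -0.18 to 0.078 with a library left out, and Irak2 was 0.030 with array weights. With the replicate block, Cd14 was -0.012, and with the block and the GC correction Irak2 was 0.0046 and Irf3 0.019. The cause was not tested. Over all member values, the alternatives other than leaving out 1 library left 255 with the same direction and side of the threshold, while 12 gained and 13 lost a call and 7 turned sign. With a library left out these numbers were 187, 3, 24 and 6. With a minimum of 1 FPKM, 9 members were tested, without Ticam2. Depth limits Ticam2 and, in PBS 3, Ly96.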
